A study of Mus musculus with 6 samples.

Results

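The Hox genes encode the homeodomain transcription factors of the HoxA, HoxB, HoxC and HoxD clusters. Members were taken as every gene whose probeset carried a single symbol made of Hox, a cluster letter and a paralog number. This gave 37 genes, each with 1 probeset, of the 19938 genes on the array. Hoxb8 was not a member, since it had no probeset of its own but shared 1 with Hoxb7. All 37 matched RefSeq under the same symbol, with 10 in HoxA and 9 in each of HoxB, HoxC and HoxD.

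Both genotypes were mice on the C57BL/6J background with loxP sites on either side of the second exon of both Hmox1 alleles. Hmox1 encodes heme oxygenase 1 (HO-1), the inducible enzyme that breaks down heme. The Hmox1f/f PdgfraCre mice also carried a Cre transgene under the promoter of Pdgfra, the receptor that marks adipocyte precursors (APs) and other mesenchymal cells, and the Hmox1f/f controls carried no Cre. Presence of Cre and loss of Hmox1 therefore cannot be told apart. All mice were obese. Their high fat diet (HFD) began at an age of 6 weeks and lasted 8 weeks. The series has 6 arrays, with 3 pools per genotype. Each pool came from the perigonadal visceral white adipose tissue (viWAT) of 2 mice, and 200 ng of RNA went onto each whole-transcript Affymetrix array. The labels name the material both as viWAT and as bead-purified adipose precursor cells. The arrays are called Cre 1, Cre 2 and Cre 3 for Hmox1f/f PdgfraCre, and f/f 4, f/f 5 and f/f 6 for Hmox1f/f.

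Hox genes lie side by side in their clusters in the order in which they are used along the body axis, with low paralog numbers toward the head and high numbers toward the tail. Genes of equal number in different clusters descend from a common ancestor and often act in place of each other. Adult cells keep much of the Hox pattern of the body region they came from, held by Polycomb and Trithorax chromatin complexes, and fat depots and their precursors differ in it. Hoxc8 has a known part in fat, where it restrains the brown adipocyte programme in white fat precursors of the mouse and is itself a target of miR-196a.

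The clusters also hold microRNA genes, and their 5p sequences are shown because those of miR-10 and of miR-196 share a seed across clusters. Both arms of miR-615 are shown because its gene is the only one of them bright enough to be tested. Sequences and positions are from RefSeq (GRCm38.p6), and the capitals mark the seed, bases 2 to 8.
mmu-miR-10a-5p: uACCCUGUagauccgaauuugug
mmu-miR-10b-5p: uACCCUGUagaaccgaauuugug
mmu-miR-196a-5p: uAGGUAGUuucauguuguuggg
mmu-miR-196b-5p: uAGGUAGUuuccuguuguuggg
mmu-miR-615-5p: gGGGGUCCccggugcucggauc
mmu-miR-615-3p: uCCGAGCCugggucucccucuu
The miR-10 genes share the seed ACCCUGU and lie on the plus strand. That of miR-10a is inside the annotated span of Hoxb3, between Hoxb5 and Hoxb4 (chr11:96317186-96317208). That of miR-10b is inside the overlapping annotated spans of Hoxd3 and Hoxd4 (chr2:74726074-74726096). The 3 miR-196 genes share the seed AGGUAGU. They lie between Hoxb13 and Hoxb9 (chr11:96265187-96265208), between Hoxc10 and Hoxc9 (chr15:102973365-102973386) and, on the minus strand, between Hoxa9 and Hoxa10 (chr6:52230129-52230150). The miR-615 gene sits inside Hoxc5 on the plus strand (the 3p sequence at chr15:103014969-103014990).

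Promoter windows were given for 21 of the 37 members, with 23 windows of 250 bases before and 50 after the start. The letters AGGTCA are a half-site of retinoic acid receptors and of other nuclear receptors, and a single copy was searched for. They stood on either strand in 7 of the 23 Hox windows (30.4%) and in 5340 of 32851 windows of all genes (16.3%). The letters TGATNNAT, a composite of the Pbx and Hox binding letters, stood in 3 Hox windows (13%) and in 2906 of all windows (8.8%), and the 2 motifs overlapped in 0 of the Hox windows. Of the 5 members with a window that also passed the level filter described next, 3 held AGGTCA, namely Hoxc4, Hoxd4 and Hoxd8, and 0 held TGATNNAT. Hoxb5, Hoxc5, Hoxc6 and Hoxc8, the members with an unadjusted limma p under 0.05 below, had no window and were not searched. The 250 bases upstream of Hoxd4 (chr2:74721728-74721977, plus strand) and Hoxd8 (chr2:74704365-74704614, plus strand) are shown because both genes had Cre 1 and Cre 3, but not Cre 2, above all controls in the data, and the capitals mark AGGTCA on either strand.
Hoxd4: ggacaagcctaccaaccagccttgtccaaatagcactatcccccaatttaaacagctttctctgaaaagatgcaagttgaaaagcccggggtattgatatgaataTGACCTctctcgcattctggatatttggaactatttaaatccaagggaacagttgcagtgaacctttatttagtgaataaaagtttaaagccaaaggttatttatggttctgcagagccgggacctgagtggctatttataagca
Hoxd8: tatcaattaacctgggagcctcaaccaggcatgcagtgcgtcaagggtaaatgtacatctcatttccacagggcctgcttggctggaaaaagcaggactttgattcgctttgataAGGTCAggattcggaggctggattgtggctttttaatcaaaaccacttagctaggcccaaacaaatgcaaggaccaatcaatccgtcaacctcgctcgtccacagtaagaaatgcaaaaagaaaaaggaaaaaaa

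All values are log2 of the deposited RMA intensity, a probe-level summary without a true zero. Differences are therefore taken between arrays for the same gene. Levels of different genes enter only as cuts for dim signal and as averages or sums over marker lists. A gene was tested if it was above log2 7 in at least 3 of the 6 arrays, which 11024 of the 19938 genes and 16 of the 37 Hox genes passed. These were Hoxa4, Hoxa6 and Hoxa7, then Hoxb2, Hoxb3, Hoxb5, Hoxb6, Hoxb7 and Hoxb9, then Hoxc4, Hoxc5, Hoxc6, Hoxc8 and Hoxc9, and Hoxd4 and Hoxd8. None of the 16 passed through arrays of only 1 genotype. Hoxd4 lay nearest inside the filter, with 2 arrays of each genotype above it. Hoxa5, a factor needed for the lung and the lower neck, lay nearest outside it at 6.91, 7 and 7.19 in Cre 1 to 3, against 6.67, 7.04 and 6.87 in f/f 4 to 6. The 21 members under the filter spanned 4.39 to 7.19. As a measure of signal from silent genes, the 1035 olfactory receptor probesets had a median of 4.32 and a 95th percentile of 6. Above that percentile in at least 3 arrays were 25 of the 37 Hox genes, while 12 were not. Hoxa2 and Hoxd1, toward the head end of their clusters, were among the 12. The others were Hoxa10, Hoxa11, Hoxa13, Hoxb13, Hoxc10 to Hoxc13, Hoxd12 and Hoxd13, toward the tail end. Hoxa9 and Hoxd9 to Hoxd11 were above the percentile.

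By limma with Benjamini-Hochberg adjustment over the 11024 genes, 0 Hox genes had an adjusted p under 0.05, as did 0 of all genes tested (0%). At an unadjusted p under 0.05, 4 Hox genes were on the higher side in Hmox1f/f PdgfraCre and 0 on the lower side. Of all genes tested, 3.03% met that on the higher side and 12.8% on the lower side. The 4 were Hoxc8, Hoxb5, Hoxc6 and Hoxc5, and they were also the 4 Hox genes whose 3 Cre values all lay above the 3 f/f values. Non-overlap on the higher side was seen in 5.82% of all genes tested and on the lower side in 21.2%. Of the 16 tested members, 15 had a difference above 0, with a median of 0.18, whereas 42.6% of all genes tested did, with a median of -0.03. Counting all 37 members without the filter, 28 were above 0 with a median of 0.07, against 49.9% and a median of 0 for all 19938 genes. The same 4 of the 37 had an unadjusted p under 0.05 on the higher side and 0 on the lower, against 2.19% and 7.5% of all 19938 genes. Since nothing passed the adjusted threshold, each value that follows is a measured difference and not a called change.

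**Figure D1:**
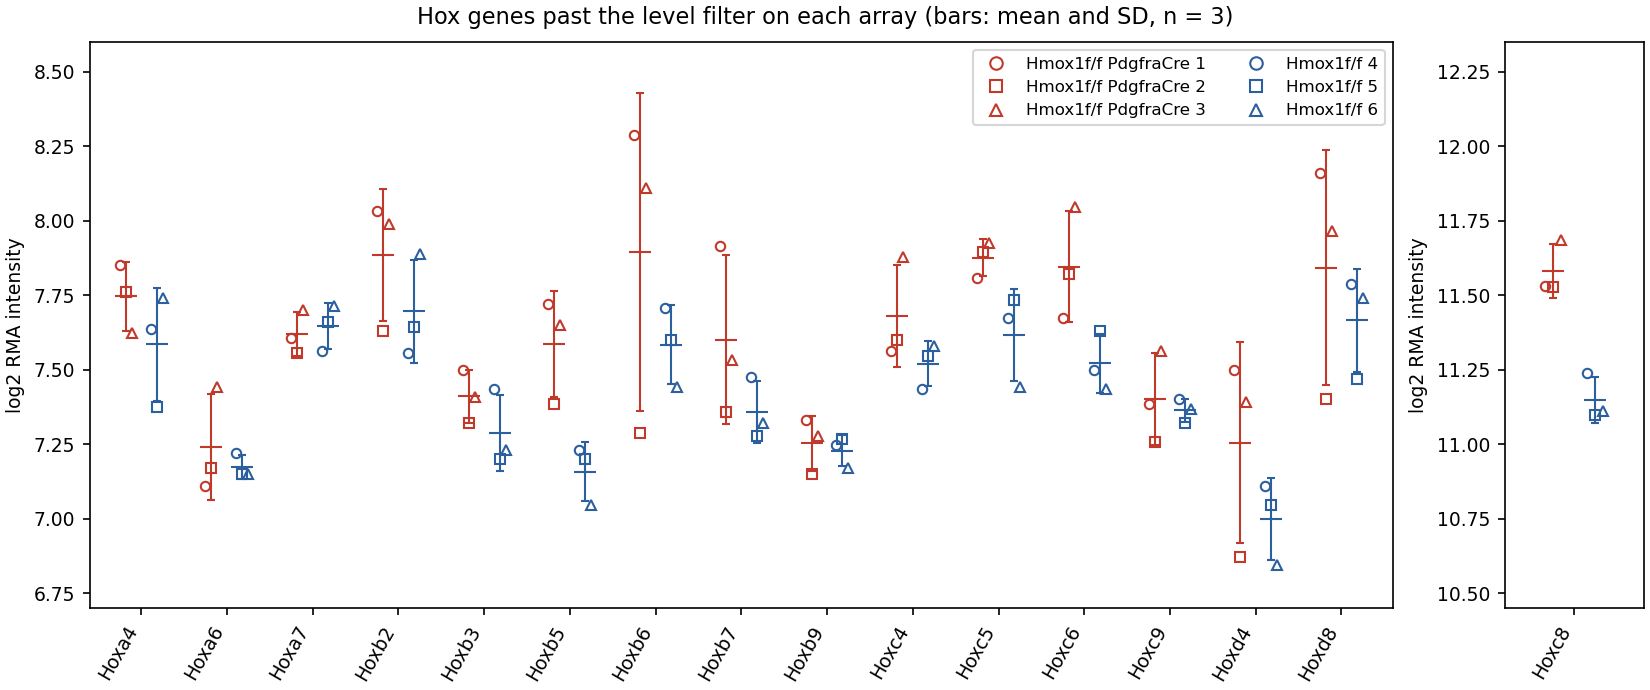
The 16 Hox genes past the level filter on each of the 6 arrays, as log2 RMA intensity, with Hmox1f/f PdgfraCre (red) left of Hmox1f/f (blue), and bars for the mean and SD of 3 pools. Hoxc8 has its own axis of the same span, and its 3 Cre values, 11.53 to 11.69, lie above its 3 f/f values, 11.10 to 11.24.

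Hoxc8, a factor of the thoracic region, measured 11.53, 11.53 and 11.69 in Cre 1 to 3, against 11.24, 11.10 and 11.11 in f/f 4 to 6. The Cre arrays lay close together and all above the control arrays. Means were 11.58 ± 0.09 in Hmox1f/f PdgfraCre and 11.15 ± 0.08 in Hmox1f/f (SD, n = 3 each). The difference was 0.43 ± 0.08 (SE, 95% interval 0.23 to 0.63), or 1.35-fold, with an unadjusted limma p of 0.0016 and an adjusted p of 0.266. Hoxc8 ranked 22 by p among the 11024 genes and 1 among those on the higher side, and 152 tested genes, Hoxc8 included, had a difference of that size or more. It was known as a gene near the top of this comparison when the Hox genes were chosen, so its rank is a description. Over 17 alternative settings the difference ranged from 0.38 to 0.49 and the adjusted p from 0.0897 to 0.773.

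The neighbours of Hoxc8 on its low-number side also had separated groups in 2 of 3 genes. Hoxc6, also a thoracic factor, measured 7.67, 7.82 and 8.04 in Cre 1 to 3, against 7.50, 7.63 and 7.43 in f/f 4 to 6. The lowest Cre array stood just above the highest control array, and the difference was 0.32 ± 0.12 (SE, limma adjusted p = 0.281). Hoxc5, of the neck to upper thorax, measured 7.81, 7.89 and 7.92 in Cre 1 to 3, against 7.67, 7.73 and 7.44 in f/f 4 to 6. Here the Cre arrays were within a narrow range and f/f 6 was the low array, with a difference of 0.26 ± 0.10 (SE, limma adjusted p = 0.291). Hoxc4, at the low-number end of the cluster, differed by 0.16 ± 0.11 and overlapped, with Cre 3 as its high array. On the other side of Hoxc8, Hoxc9 differed by 0.04 ± 0.10, and Hoxc10 to Hoxc13, all under the filter, differed by between -0.03 and 0.06. Across the cluster the differences thus ran from 0.16 at Hoxc4 up to 0.43 at Hoxc8 and were small beyond it. Whether adjoining genes differ from one another in this was not tested.

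In HoxB, Hoxb5, a factor of the neck and shoulder level, measured 7.72, 7.38 and 7.65 in Cre 1 to 3, against 7.23, 7.20 and 7.04 in f/f 4 to 6. The groups did not overlap, Cre 2 being the lowest Cre array, and the difference was 0.43 ± 0.11 (SE, 95% interval 0.16 to 0.70, limma adjusted p = 0.266). Hoxb6 measured 8.29, 7.29 and 8.11 in Cre 1 to 3, against 7.71, 7.60 and 7.44 in f/f 4 to 6. Cre 1 and Cre 3 were above every control array and Cre 2 below every one, so that a difference of 0.31 came with an SE of 0.26, and it was 0.11 without Cre 1 and 0.61 without Cre 2. Hoxb7 measured 7.91, 7.36 and 7.53 in Cre 1 to 3, against 7.48, 7.28 and 7.32 in f/f 4 to 6, a difference of 0.24 ± 0.15 that was 0.09 without Cre 1 and 0.36 without Cre 2. Hoxb2, which acts in the hindbrain, measured 8.03, 7.63 and 7.99 in Cre 1 to 3, against 7.55, 7.64 and 7.89 in f/f 4 to 6, a difference of 0.19 ± 0.14 that was 0.11 without Cre 1 and 0.32 without Cre 2. In both genes Cre 2 fell among the control arrays. Hoxb3 differed by 0.12 ± 0.09 and Hoxb9 by 0.02 ± 0.08. The probeset shared by Hoxb8 and Hoxb7 measured 7.98, 6.54 and 7.04 in Cre 1 to 3, against 6.95, 6.86 and 6.82 in f/f 4 to 6, with Cre 1 high and Cre 2 low as in Hoxb6.

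HoxD and HoxA gave no tested member with separated groups. Hoxd4, of the neck, measured 7.50, 6.87 and 7.39 in Cre 1 to 3, against 7.11, 7.04 and 6.85 in f/f 4 to 6, a difference of 0.25 ± 0.18 that was 0.13 without Cre 1 and 0.45 without Cre 2. Hoxd8, of the trunk, measured 8.16, 7.40 and 7.97 in Cre 1 to 3, against 7.79, 7.47 and 7.74 in f/f 4 to 6, a difference of 0.18 ± 0.21 that was 0.02 without Cre 1 and 0.40 without Cre 2. In both, Cre 1 and Cre 3 were above all controls while Cre 2 was not, as in Hoxb6. In HoxA, Hoxa4 measured 7.85, 7.76 and 7.62 in Cre 1 to 3, against 7.64, 7.38 and 7.74 in f/f 4 to 6, a difference of 0.16 ± 0.12 that was 0.06 without f/f 5. Hoxa6 measured 7.11, 7.17 and 7.44 in Cre 1 to 3, against 7.22, 7.15 and 7.15 in f/f 4 to 6, a difference of 0.07 ± 0.10 set by Cre 3. Hoxa7 measured 7.61, 7.55 and 7.70 in Cre 1 to 3, against 7.56, 7.66 and 7.71 in f/f 4 to 6, and its difference of -0.02 ± 0.08 was the only one below 0 among the tested members.

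**Figure D2:**
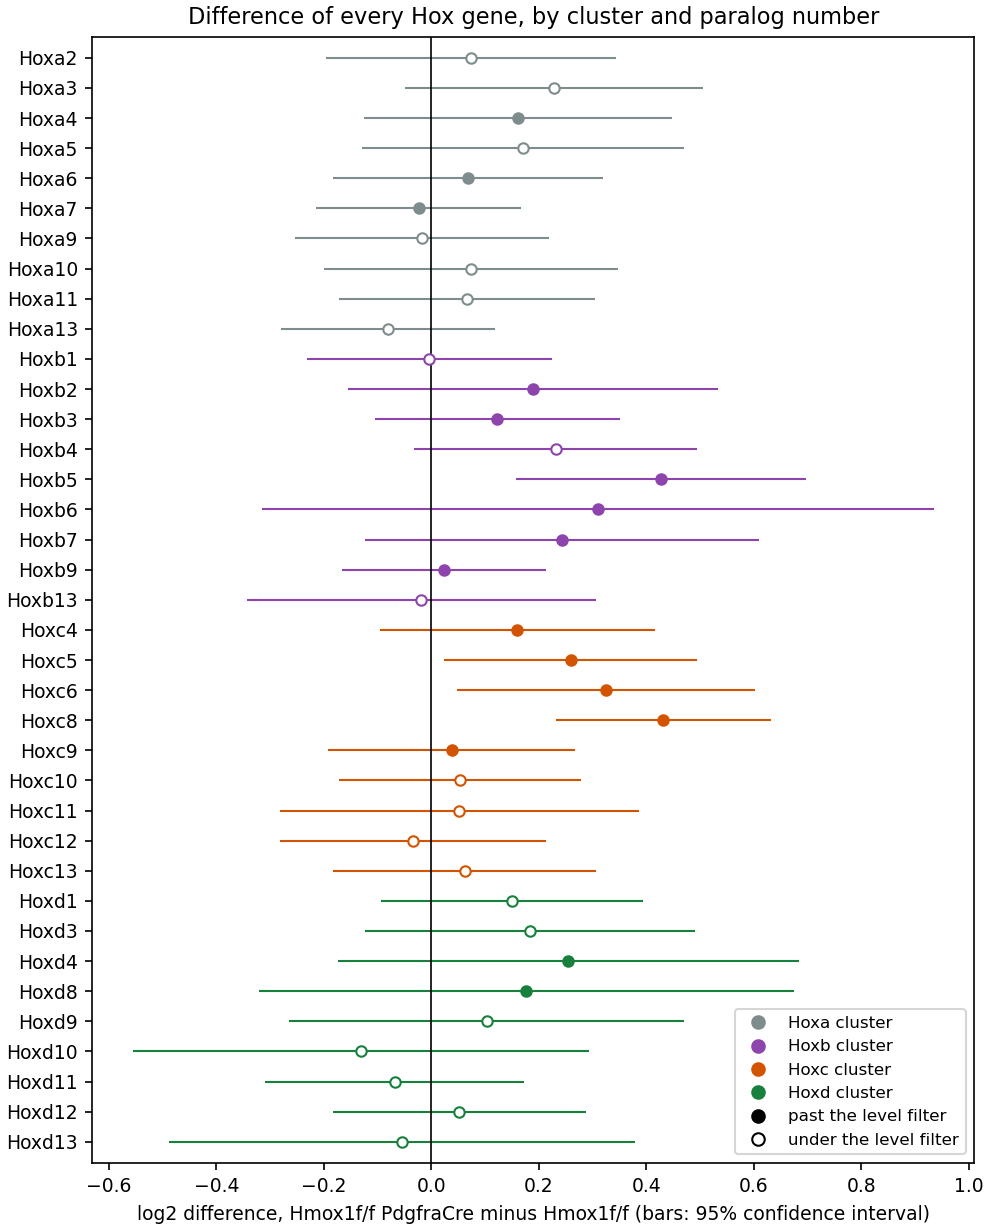
The log2 difference, Hmox1f/f PdgfraCre minus Hmox1f/f, of all 37 Hox genes in cluster order with 95% confidence intervals from limma, filled points being past the level filter. The intervals of Hoxb5, Hoxc5, Hoxc6 and Hoxc8 lie above 0, and members numbered 9 to 13 lie between -0.13 and 0.10.

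The paralog ranges are given as a description, and differences between them were not tested. Of the 14 members numbered 4 to 8, 13 were above 0 with a median of 0.24, 12 passed the filter, and they held all 4 genes with an unadjusted p under 0.05. Within that range the medians were 0.11 in HoxA, 0.28 in HoxB, 0.29 in HoxC and 0.22 in HoxD, and in HoxA the largest difference was that of Hoxa3 (0.23), outside it. The 7 members numbered 1 to 3 had a median of 0.15 with 6 above 0, and 2 of them, Hoxb2 and Hoxb3, passed the filter. The 16 members numbered 9 to 13 had a median of 0.03, with 9 above and 7 below 0, and only Hoxb9 and Hoxc9 of them passed the filter. By cluster, the tested members had medians of 0.07 in HoxA, 0.22 in HoxB, 0.26 in HoxC and 0.22 in HoxD. The 21 members under the filter had a median of 0.05 and ranged from -0.13 to 0.23, with 0 at an unadjusted p under 0.05, where 1.14% of the 8914 genes under the filter were on the higher side and 0.998% on the lower. The largest of these were Hoxb4 and Hoxa3, 0.23 each. Most members numbered 9 to 13 were thus dim as well as near 0, and a small difference in a dim probeset may not be measurable here.

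The arrays of a genotype did not move alike in all clusters. Taking each tested gene's deviation from its own mean over the 6 arrays, the 6 HoxB genes averaged 0.30, -0.14 and 0.17 in Cre 1 to 3, against -0.05, -0.13 and -0.15 in f/f 4 to 6. The 2 HoxD genes averaged 0.39, -0.30 and 0.24 in Cre 1 to 3, against 0.01, -0.18 and -0.15 in f/f 4 to 6. Cre 2 thus stood among the controls in HoxB and below them in HoxD. The 5 HoxC genes averaged 0.04, 0.06 and 0.26 in Cre 1 to 3, against -0.11, -0.09 and -0.17 in f/f 4 to 6, with all 3 Cre arrays above all 3 controls. The 3 HoxA genes averaged 0.02, -0.01 and 0.09 in Cre 1 to 3, against -0.03, -0.11 and 0.03 in f/f 4 to 6, and overlapped. Cre 2 was the lowest Cre array in 8 of the 8 tested HoxB and HoxD genes, 2 of 5 HoxC genes and 1 of 3 HoxA genes, against 30.1% of all genes tested. Cre 1 and Cre 3 were both above every control in 7 of the 8 HoxB and HoxD genes, 3 of 5 HoxC genes and 0 of 3 HoxA genes, against 13.3% of all genes tested. HoxB and HoxD were counted together after this pattern had been seen, so the counts are a description and not a test. Without Cre 2, 7 Hox genes had an unadjusted p under 0.05 on the higher side, namely Hoxb2, Hoxb5, Hoxb6, Hoxb7, Hoxc8, Hoxd4 and Hoxd8, where 5.59% of all genes did.

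**Figure D3:**
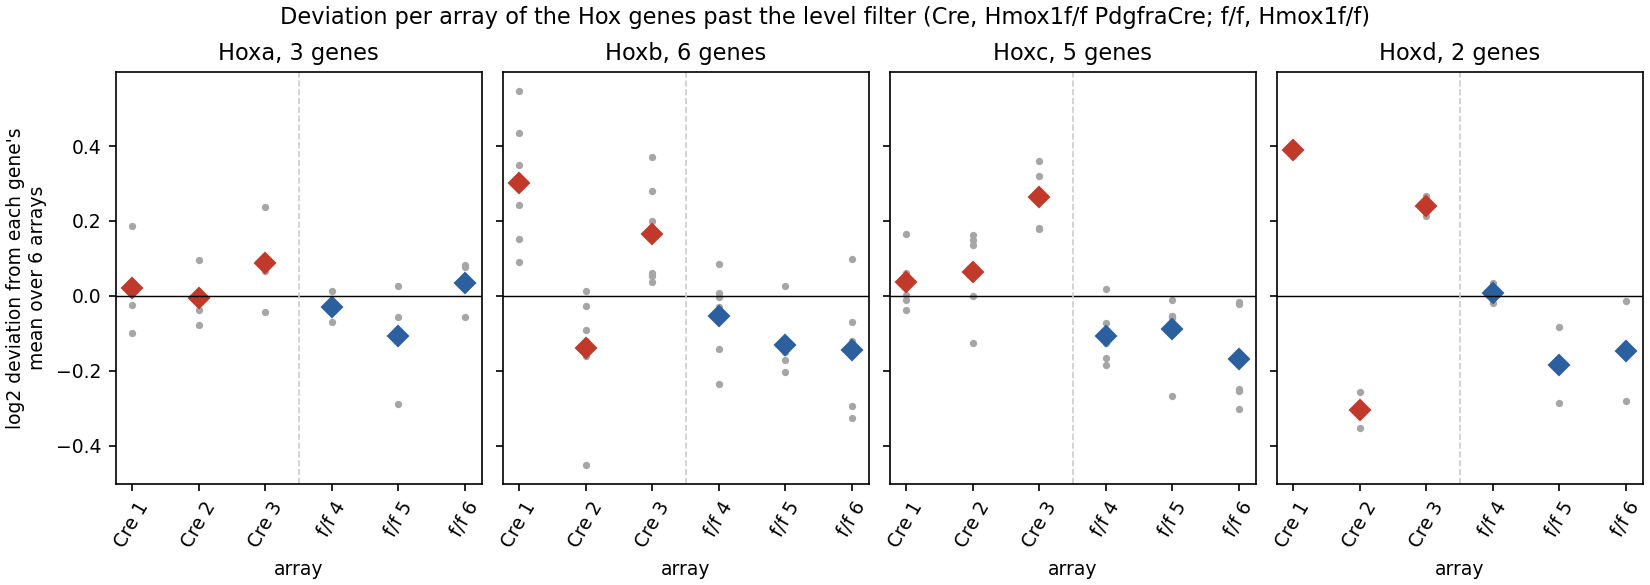
Log2 deviation of each tested Hox gene from its own mean over 6 arrays (grey points) and the mean over a cluster's genes (diamonds), with Cre arrays in red and f/f arrays in blue. Cre 2 lies among the controls in HoxB (-0.14) and below them in HoxD (-0.30), and in HoxC the 3 Cre arrays (0.04 to 0.26) lie above the 3 controls (-0.17 to -0.09).

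The arrays also differed in RNA of other cells, and in bulk samples fewer cells of a type and less RNA per cell cannot be told apart. Genes of the epididymis, which lies against perigonadal fat, averaged 7.70, 5.27 and 6.01 over 12 markers in Cre 1 to 3, against 5.32, 5.52 and 6.64 in f/f 4 to 6, with summed intensities of 560 to 15434 in Cre and 592 to 3011 in f/f. Cre 1 was high in Lcn5 (12.21), Wfdc10 (12.23) and Adam7 (11.68), Cre 3 in Wfdc10 (9.82) and Adam7 (8.93), and f/f 6 in Gpx5 (10.33) and Lcn9 (9.20). Without Cre 1 and f/f 6, the highest array of each genotype in that list, Hoxc8 differed by 0.44, Hoxc6 by 0.37, Hoxb5 by 0.30 and Hoxc5 by 0.21. The values of Hoxb6 (0.04), Hoxb7 (0.07), Hoxd4 (0.05) and Hoxd8 (0.06) were then all under 0.1. Cre 1 was the highest of the 6 arrays in each of these genes, so leaving it out lowers their differences in any case. Without Cre 1 alone they were 0.11, 0.09, 0.13 and 0.02. A part of epididymal RNA in these values was not tested. With Cre 1 and f/f 6 both left out, only Hoxc6 and Hoxc8 kept an unadjusted p under 0.05. In that setting 0.816% of all genes did on the higher side, and the Hox median was 0.10. The 10 spermatid markers averaged 6.98, 6.15 and 7.46 in Cre 1 to 3, against 6.58, 7.64 and 9.76 in f/f 4 to 6.

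Of 13 tested macrophage markers, 0 were above 0 and 10 did not overlap on the lower side, with a median of -0.42. Among all genes tested, 42.6% were above 0 and 21.2% did not overlap on the lower side. The summed intensity of the macrophage markers was 30103 to 40743 in Cre and 45310 to 47425 in f/f. All 10 endothelial markers were above 0 (median 0.35, sums of 8507 to 9788 in Cre and 6141 to 7946 in f/f), as were all 11 tested adipocyte markers (median 0.13, sums of 73878 to 79956 in Cre and 63576 to 71695 in f/f). The 18 precursor markers were all past the filter, with 8 above 0 and a median of -0.05. Medians were 0.12 for 10 mural, -0.15 for 10 mesothelial and 0.05 for 2 lymphocyte markers, and 1 red cell marker past the filter differed by 0.11. Adipoq measured 12.74 to 13.10 and Cd68 12.36 to 13.09 over the 6 arrays. The paper reports low expression of both in its bead-purified precursors by PCR. Which of the labelled materials was on these arrays was not tested. Signal of precursor, adipocyte, macrophage and endothelial markers was present together. The part of these cell types in the Hox values was not tested. Hmox1 itself measured 11.25, 11.36 and 10.74 in Cre 1 to 3, against 11.90, 11.63 and 12.32 in f/f 4 to 6, and Pdgfra differed by -0.17 ± 0.08.

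Hox proteins bind DNA together with TALE homeodomain partners, the Pbx, Meis and Pknox proteins. Of 9 such genes 8 were measured and 6 passed the filter, with 1 above 0 and a median of -0.09. Pbx2 measured 8.08, 8.12 and 8.09 in Cre 1 to 3, against 8.33, 8.24 and 8.36 in f/f 4 to 6, a difference of -0.21 ± 0.07 (limma adjusted p = 0.267). Meis3 measured 8.01, 7.95 and 7.79 in Cre 1 to 3, against 8.14, 8.07 and 8.18 in f/f 4 to 6, a difference of -0.21 ± 0.09 (limma adjusted p = 0.308). Both partners were lower on every Cre array than on any control, which also held for 21.2% of all genes tested. Pknox1 differed by -0.14 ± 0.09, while Pbx3, Meis1 and Meis2 lay between -0.05 and 0.03.

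The chromatin complexes that hold Hox states were mixed. Of 27 tested Polycomb genes, 15 were above 0 with a median of 0.05. The smallest p values were those of Rbbp4, a histone-binding subunit, at -0.23 ± 0.07, Phc3, of the PRC1 complex, at 0.38 ± 0.13, and Cbx8, a reader of methylated H3K27, at -0.21 ± 0.08. Of 14 Trithorax and demethylase genes, 7 were above 0 with a median of 0.01. Kdm6b, which removes the Polycomb mark, measured 9.45, 9.008 and 9.51 in Cre 1 to 3, against 8.95, 8.89 and 9.003 in f/f 4 to 6, so that Cre 1 and Cre 3 were high and Cre 2 stood just above the controls. The core subunits Ash2l and Wdr5 differed by -0.21 ± 0.09 and -0.27 ± 0.11. None of these had an adjusted p under 0.05.

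Among upstream signals, retinoic acid turns on low-number Hox genes in the embryo. Of 13 tested receptor and enzyme genes, 6 were above 0 with a median of -0.01. Aldh1a2, which makes retinoic acid, differed by -0.27 ± 0.10 and Dhrs3, which turns retinal back to retinol, by -0.26 ± 0.10, both without overlap. In this list, 3 of the 13 did not overlap on the lower side, near the 21.2% of all genes tested. Aldh1a1 differed by 0.29 ± 0.17 with overlap. Of the Cdx and Gdf11 genes, which act upstream of Hox genes of the trunk and tail, only Gdf11 passed the filter, at 0.05 ± 0.10. Of 12 tested patterning factors outside the Hox clusters, 5 were above 0 with a median of -0.05. Irx3 measured 7.38, 7.26 and 7.29 in Cre 1 to 3, against 7.13, 7.03 and 7.09 in f/f 4 to 6. Its difference was 0.22 ± 0.07 without overlap, where 5.82% of all genes tested did not overlap on the higher side. Meox2 differed by 0.41 ± 0.20 with Cre 3 as its high array, and Tcf21, a marker of visceral precursors, by -0.21 ± 0.12.

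**Figure D4:**
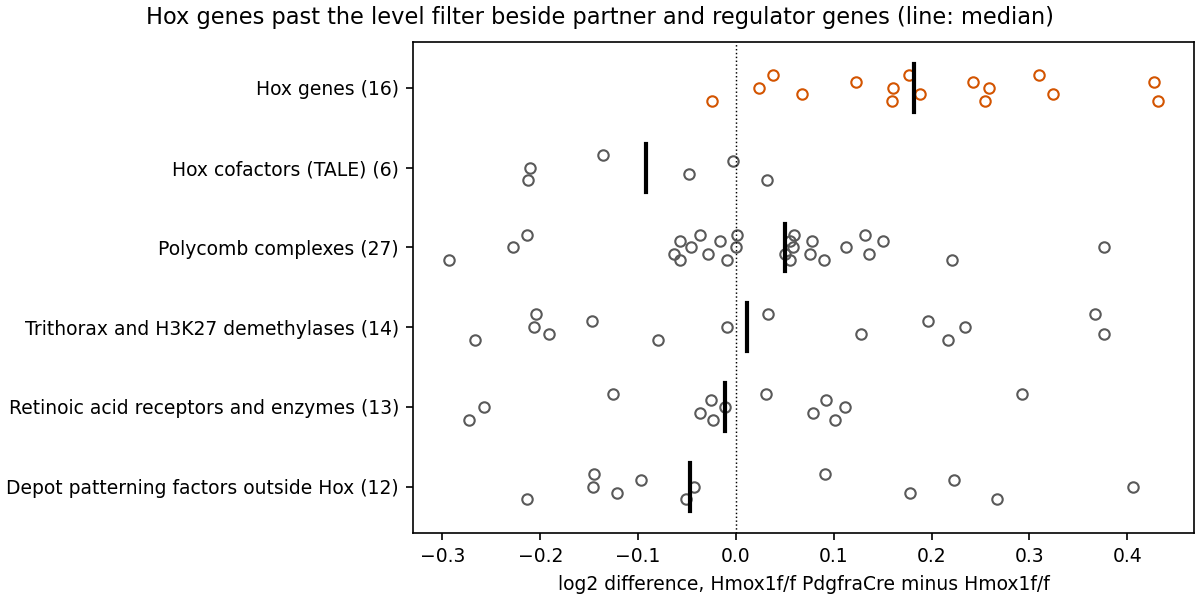
Log2 difference, Hmox1f/f PdgfraCre minus Hmox1f/f, of each tested gene (circles) and the median (line) for the Hox genes and 5 lists, with the number tested in brackets and points spread vertically only to separate them. The Hox median is 0.18, and the medians of the 5 lists lie between -0.09 and 0.05.

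Non-coding genes of the clusters were mostly dim, with 10 of 19 measured and 2 past the filter. The probeset of the miR-615 gene measured 8.01, 8.09 and 7.68 in Cre 1 to 3, against 7.76, 7.67 and 7.38 in f/f 4 to 6. Cre 3 fell between the controls there, and the difference was 0.32 ± 0.15 (limma adjusted p = 0.345), beside 0.26 ± 0.10 for its host Hoxc5. A probeset inside a host gene cannot tell the hairpin from the host transcript, and none of these probesets measures the mature microRNA. Hoxd3os1 differed by 0.13 ± 0.12, while its second probeset gave -0.47 ± 0.40 with f/f 6 alone high at 7.69. The miR-10 and miR-196 hairpins, whose seeds are shown above, lay between 3.81 and 5.61 on all arrays, under the 95th percentile of olfactory receptors, and are not compared.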

How the data were processed

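The deposited values were RMA intensities on a linear scale, whole numbers from 8 to 20701, which the authors made in Affymetrix Expression Console 1.1 according to the submitters' processing notes. RMA corrects background, equalises the distribution of the arrays and summarises probes, which can narrow large differences. Of 35556 probesets, 21789 had 1 gene symbol in the platform annotation, and the probeset with the highest mean stood for each of 19938 genes. Values were taken to log2. limma 3.58.1 in R 4.3.3 fitted Cre against no Cre on all 6 arrays with no covariate, moderated over all genes, and Benjamini-Hochberg adjustment ran over the 11024 genes above log2 7 in at least 3 arrays. The methods' further filter on deviation was an alternative. Array medians were 106 to 115 in intensity, 0 pairs of arrays were identical, and the number of arrays limits precision. No source used here says how mice were put into pools, and p-values measure the spread between pools.

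Members, gene lists and tests were chosen with earlier results of these data known. Values on each array are given for Hoxc8, members with an unadjusted p under 0.05 and the 3 tested members of each cluster with the smallest p, and up to 3 genes of each other list are named by the same order. Hoxb6, the shared Hoxb8 and Hoxb7 probeset and single epididymal genes were named after their values were seen. Motifs were searched in RefSeq windows with Python 3.11.15. Alternatives were other filters, normalizations, moderation, array weights, mean of probesets and each array left out. After seeing the data, moderation over the tested genes and leaving out Cre 1 with f/f 6 were added.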

Additional observations from a re-analysis of the deposited data

How the results depend on the processing

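Of 480 values under alternative settings, 9 changed sign and 6 counts moved by over 1.5 times. No setting gave a gene with an adjusted p under 0.05, so staying on that side of the threshold says nothing about the size of a difference. With each array left out in turn, the number of Hox genes on the higher side at an unadjusted p under 0.05, 4 with all arrays, ranged from 2 to 7. It was 7 without Cre 2 (5.59% of all genes tested), and 2 (Hoxb5 and Hoxc8) without Cre 3 (2.25%), without f/f 4 (3.1%) or without f/f 6 (1.32%). The number of non-overlapping Hox genes ranged from 4 to 10. It was 10 without Cre 2, where 13.3% of all genes did not overlap on the higher side, against 6.49% to 11.1% with another array left out and 5.82% with none, since fewer arrays separate more easily. The same settings moved the Hox median between 0.11 without Cre 1 and 0.28 without Cre 2. Hoxb3 was 0.08 without Cre 1 and 0.20 without f/f 4, Hoxc4 was 0.06 without Cre 3 and Hoxc5 was 0.17 without f/f 6. Leaving out Cre 1 and f/f 6 together, chosen after seeing the data, gave 2 Hox genes (Hoxc6 and Hoxc8, 0.816% of all genes). With array weights the 4 genes were Hoxa4, Hoxb5, Hoxb7 and Hoxc8 (4.67% of all genes). With arrays centred on the median, Hoxb5, Hoxc5, Hoxc6 and Hoxc8 kept an unadjusted p under 0.05 (2.66% of all genes). Only 3 Hox genes did not overlap there, beside 4.48% of all genes on the higher side. Under the methods' filter, 8 Hox genes were tested, 3 were on the higher side and the share of all genes was 7.28%.

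Differences near 0 changed sign. Hoxa6 was -0.0337 without Cre 3 and reached 0.13 with other arrays left out. Hoxa7 ranged from -0.0654 to 0.0106 with each array left out and was 0.0173 without Cre 1 and f/f 6. Hoxb9 was -0.0029 with arrays centred on the median, ranged from -0.0153 to 0.0753 with each array left out and was -0.0444 without Cre 1 and f/f 6. Hoxc9 ranged from -0.0425 to 0.110. The cause was not tested. A further quantile normalization put 5.56% of all genes on the higher side and 9.15% on the lower, beside 3.03% and 12.8% in the values reported, with the same 4 Hox genes. No paired analysis was possible because the replicate numbers of Hmox1f/f PdgfraCre and Hmox1f/f are not shared. The 3 pools per genotype and the dim signal of 21 Hox genes limit what can be measured.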
